A study of Mus musculus with 60 samples.

Results

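The T cell receptor alpha (TCRA) repertoires of splenic CD4 and CD8 T cells were compared in 6 of the 60 libraries of the series: 3 CD4 and 3 CD8 libraries labelled as T cells before hematopoietic cell transplantation (HCT). Within each cell type there was 1 library from each of 3 genotypes of C57BL/6 mouse: WT, STAT3ko and STAT3koPD-1ko. The study's methods describe STAT3ko as a floxed Stat3 gene deleted by CD4-Cre, which is active from the thymic stage at which both CD4 and CD8 are expressed and therefore acts in both lineages, and STAT3koPD-1ko as the same deletion in mice that also lacked PD-1. According to the labels the cells were taken before any transplant, and the titles call them naive. The study's methods describe sorting of TCRβ+ CD4+ or TCRβ+ CD8+ cells before RNA extraction for samples pooled from recipients. They do not state the sort of these spleen cells. Ages are not given in the sources used here. The methods describe the merged CDR3 table of all samples as holding more than 1 batch, with 3 mice combined in each. They do not name the spleen libraries there, and the labels give no batch. The members were all TCRA columns named for spleen, and each CD4 library was paired with the CD8 library of its genotype. With 1 library per genotype and cell type, the 3 genotypes served as the replicates of the CD4 against CD8 contrast, so the spread given below includes differences between genotypes, and the effect of the genotype itself was not tested. The tables hold no level of Cd4, Cd8a or any other transcript outside the receptor, so the labelled cell types could not be checked against their defining markers.

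A TCRA gene is assembled in the thymus by joining 1 of many variable (TRAV) segments to 1 of many joining (TRAJ) segments. The complementarity determining region 3 (CDR3) spans this joint: its first residues are encoded by the end of the TRAV segment, its last ones by the TRAJ segment, and those between by trimmed ends and nucleotides added without a template. The first 2 complementarity determining regions lie wholly inside the TRAV segment and usually face the helices of the major histocompatibility complex (MHC), while the CDR3 usually faces the bound peptide. CD4 T cells are selected on MHC class II and CD8 T cells on MHC class I, and preferences of single TRAV segments for one lineage are known in mice. The alpha locus can rearrange repeatedly on one chromosome, each round using a TRAV segment farther from, and a TRAJ segment farther along, the array, so the position of a segment also bears on when it is used.

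The results below turn on a TRAV segment, TRAV16N, and a TRAJ segment, TRAJ22, that were both more used in CD8 libraries, and on TRAV14, a family more used in CD4 libraries. Their germline letters are shown because the start and end of each CDR3 can be read against them. In the GRCm38 mouse genome with GENCODE annotation, TRAV16N lies on the plus strand at chr14:53351028-53351621, TRAV14N-3 at chr14:53370077-53370575 and TRAJ22 at chr14:54197248-54197307. For the TRAV segments only the end from the conserved cysteine codon onwards is given, and in TRAJ22 the capitals mark the part that falls inside the CDR3, up to the phenylalanine codon that closes it.
TRAV16N end: tgtgctatgagagaggg
TRAV14N-3 end: tgtgcagcaagtg
TRAJ22: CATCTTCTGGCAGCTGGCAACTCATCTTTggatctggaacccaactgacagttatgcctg
The 3 clonotypes with the highest mean frequency in each cell type are shown next, named by cell type and rank. They are shown because 2 of the 3 in CD8 join TRAV16N to TRAJ22, and because the same clonotypes return in the account of sharing. Each is given as the nucleotide sequence its own table lists, from the cysteine codon to the codon that closes the CDR3. Capitals mark the letters that match the end of the named TRAV segment without a gap from the 5′ side.
CD8-1, TRAV16N with TRAJ22: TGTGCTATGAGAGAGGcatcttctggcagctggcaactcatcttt
CD8-2, TRAV16N with TRAJ22: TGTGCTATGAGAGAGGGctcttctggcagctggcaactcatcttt
CD8-3, TRAV14N-1 with TRAJ4: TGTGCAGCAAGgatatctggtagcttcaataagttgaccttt
CD4-1, TRAV10 with TRAJ22: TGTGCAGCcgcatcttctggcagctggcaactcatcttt
CD4-2, TRAV7-4 with TRAJ27: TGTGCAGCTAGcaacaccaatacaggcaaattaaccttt
CD4-3, TRAV7D-4 with TRAJ15: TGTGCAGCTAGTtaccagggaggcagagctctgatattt
CD8-1, CD8-2 and CD4-1 share the TRAJ22 end and differ at the start, which reads CAMR in both CD8 clonotypes.

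The libraries were of similar completeness. The deposited values are fractions of the reads of each library, and the listed clonotypes, those present in at least 2 of the 18 libraries that had been joined, made up 95.8% to 99.1% of the reads. The CD4 libraries listed 13541, 14747 and 8843 clonotypes in the order WT, STAT3ko and STAT3koPD-1ko, which is the order used for all sets of 3 values below, and the CD8 libraries listed 8501, 10284 and 10482. The effective number of clonotypes (the number of equally frequent clonotypes with the same Shannon entropy) was 3557, 3760 and 2661 in CD4 and 1975, 3157 and 4009 in CD8. These ranges overlapped, and CD4 exceeded CD8 by 0.17 on the log2 scale with an exact two-sided permutation p of 0.75, where 0.25 is the smallest p that 3 pairs allow. The most frequent clonotype held between 0.548% and 0.854% of a library. The clonotype called CD4-3 above made up 0.534% of the reads of the CD4 WT library, where its segment TRAV7D-4 held 1.64% of listed frequency. CD8-3 made up 0.846% of the reads of the CD8 WT library, where TRAJ4 held 3.52% of listed frequency. Single clonotypes thus weighed on the rarer segments. The spleen libraries shared 45.1% to 57.4% of their frequency with the first liver library of the same genotype, taken on day 6 after HCT, against 13.8% to 22.8% with those of other genotypes. With the second liver libraries, that of the same genotype included, they shared 15.4% to 24.2%. The main comparisons were repeated without the clonotypes of the first liver library of the same genotype. Of the 35 TRAV segments called over all clonotypes, 11 were then called in the same direction and 1 in the other, of the 13 TRAV families 5 (TRAV14, TRAV21, TRAV4, TRAV12 and TRAV16) and of the 11 TRAJ segments 0. Calls not made over all clonotypes brought the totals to 15 TRAV segments, 6 families and 1 TRAJ segment, and no CDR3 start, V-J pair, length class or residue was called (limma, with 5, 30, 1 and 4 of these at an unadjusted p under 0.05). These values rest on little, since only 1.73% to 19.1% of a spleen library's frequency was left, and the part of this sharing in the results was not tested.

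The CDR3 and TRAJ name of a clonotype could be compared between the tables, but its TRAV name could not be taken at face value. Each table lists a CDR3 amino acid sequence once, with 1 TRAV name, so the identity of a clonotype is in effect its CDR3. Of the 25521 CDR3s present in both whole tables, 99.9% had the same TRAJ name, 57.5% the same TRAV family and 29.9% the same TRAV segment. The next CDR3, a TRAJ22 chain among the most frequent of both cell types, shows this with 1 nucleotide sequence and a different name in each table.
TRAV14D-2 in the CD4 table, TRAV14D-1 in the CD8 table: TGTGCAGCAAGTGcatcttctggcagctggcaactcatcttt
CDR3s with different names covered 54.4% to 59.4% of the frequency of the CD4 libraries and 43.6% to 46.8% of that of the CD8 libraries. TRAV usage was therefore computed 3 ways: with each table's own names, with the CD4 table's names for CDR3s of both, and with the CD8 table's names for them. The first 4 residues of the CDR3, which the TRAV segment largely encodes, were compared as a measure that uses no name.

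The TRAV16 family made up the largest difference between the cell types. It accounted for 3.62%, 3.95% and 3.33% of the CD4 libraries and for 24.6%, 25.4% and 28.7% of the CD8 libraries. The lowest CD8 library lay far above the highest CD4 library. The means were 3.63% ± 0.312 and 26.2% ± 2.19 (SD, n = 3), a 7.22-fold difference. On log2(percent + 0.1) the CD4 minus CD8 difference was -2.82 (SE 0.18, limma with Benjamini-Hochberg adjusted p = 5.04e-16). It was -2.71 with the CD4 table's names and -2.65 with the CD8 table's names, and -1.60 (limma, adjusted p = 0.000796) without the liver clonotypes. Nearly all of it was TRAV16N, at 3.54%, 3.88% and 3.28% in CD4 and 24.5%, 25.3% and 28.6% in CD8. TRAV16N is a member of a family with near-identical copies in the locus, and its copies cannot be told apart from the CDR3.

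The CDR3 start CAMR, encoded by the end of TRAV16N, gave the same picture without names. It made up 3.57%, 3.83% and 3.36% of frequency in CD4 and 23.5%, 24.3% and 27% in CD8 (log2 difference -2.76, SE 0.15, limma adjusted p = 0.000241). Clonotypes with this start were many: 545, 564 and 381 in the CD4 libraries and 1211, 1499 and 1596 in the CD8 libraries. Counting each clonotype once, they were 3.82% to 4.31% of the CD4 lists and 14.2% to 15.2% of the CD8 lists, and no CAMR clonotype reached more than 0.625% of a library, although a CAMR clonotype was the most frequent one in the CD8 STAT3ko and CD8 STAT3koPD-1ko libraries. Of the CAMR frequency, 98.1% to 99.1% was named TRAV16 in CD8 and 89.7% to 90.2% in CD4. CAMR is the germline start of 3 segments of the TRAV6 and TRAV16 families. The call held with any 1 pair of spleen libraries left out. All 12 CD4 and CD8 pairs of day 6 libraries from liver and gut had the same direction, of which the first liver libraries share clonotypes with the spleen. Without the liver clonotypes the CAMR difference was -1.37 and missed the threshold (limma, adjusted p = 0.227).

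Among the families tested by each table's own names, TRAV12, the V alpha 8 family, was the other one called higher in CD8 under each naming. TRAV12 held 4.73%, 4.84% and 4.55% of the CD4 libraries and 13.5%, 11.8% and 11.4% of the CD8 libraries, with no overlap. The means were 4.71% ± 0.147 and 12.3% ± 1.14 (n = 3), a 2.6-fold difference on the linear scale and -1.36 on the log2 scale (SE 0.18, limma adjusted p = 3.08e-08). With the names of the CD4 and CD8 tables the log2 difference was -0.95 and -0.81, both past the threshold, and without the liver clonotypes it was -1.12 (limma, adjusted p = 0.0139). TRAV3 was at 3.93%, 3.57% and 4.02% in CD4 and 6.4%, 6.59% and 6.14% in CD8 by each table's own names (log2 -0.72, limma adjusted p = 0.000443). Its difference shrank to -0.30 (adjusted p = 0.123) and -0.09 (adjusted p = 0.61) with the names of one table, so the TRAV3 call depended on the naming. TRAV2 fell below the usage limit by each table's own names and was not tested with them. It was at 0.101%, 0.0826% and 0.141% in CD4 and 0.868%, 0.481% and 0.586% in CD8. TRAV18, also below the limit, leaned to CD4 (means 0.0371% and 0.00307%).

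**Figure D1:**
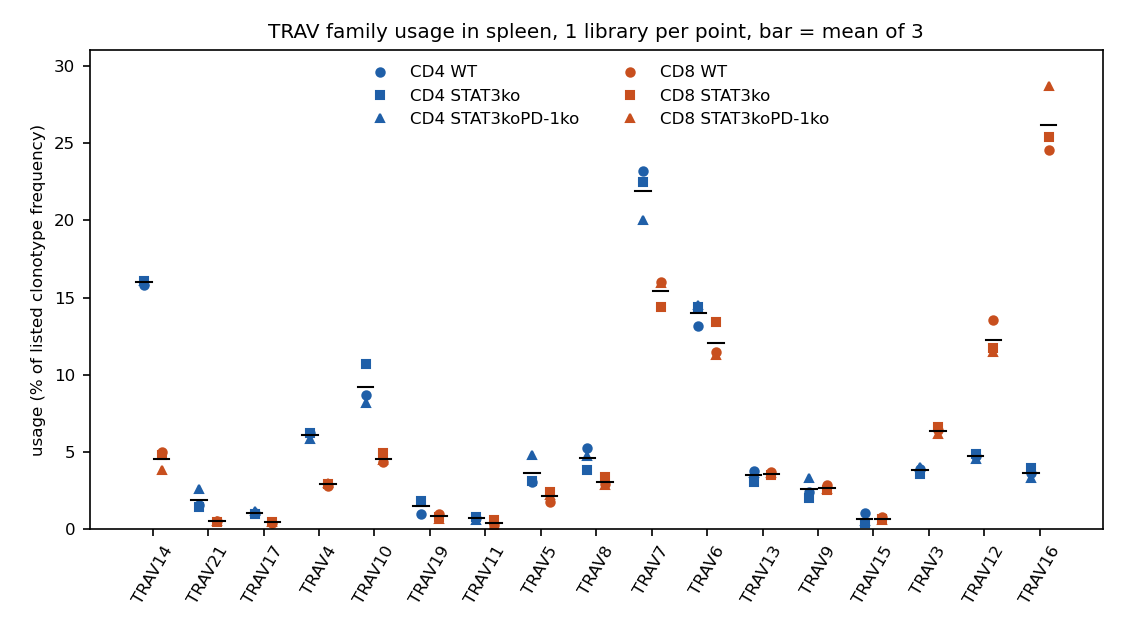
Usage of TRAV families in the 6 spleen libraries, as percent of listed clonotype frequency, with a point per library, CD4 in blue and CD8 in orange, the genotype by the shape of the point, and a bar at the mean of 3. TRAV16 and TRAV12 sit higher in the 3 CD8 libraries, and TRAV14, TRAV10 and TRAV4 higher in the 3 CD4 libraries.

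TRAV14, the V alpha 2 family, was the most used of the families with large differences in the direction of CD4. It accounted for 15.8%, 16.1% and 16.1% of the CD4 libraries and 4.98%, 4.82% and 3.8% of the CD8 libraries. The means were 16% ± 0.156 and 4.53% ± 0.636 (n = 3), a 3.53-fold difference that was larger than the spread between genotypes (log2 1.81, SE 0.18, limma adjusted p = 6.85e-11). It was 1.29 and 1.27 with the names of the CD4 and CD8 tables, and 1.27 without the liver clonotypes (limma, adjusted p = 0.00593). TRAV21, a segment near the TRAJ array that can also be used in delta chains, was rarer, at 1.57%, 1.46% and 2.58% in CD4 and 0.545%, 0.478% and 0.543% in CD8 (log2 1.62, limma adjusted p = 6.92e-10). Its log2 difference was 1.62 under all 3 namings and 1.44 without the liver clonotypes, and its 3.58-fold ratio of means was close to that of TRAV14. TRAV4, the V alpha 11 family, was at 6.21%, 6.23% and 5.87% in CD4 and 2.82%, 2.92% and 2.99% in CD8 (log2 1.04, limma adjusted p = 3.71e-06, and 1.06 without the liver clonotypes). In each of these families every CD4 library lay above every CD8 library.

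TRAV10 usage was also higher in CD4, at 8.66%, 10.7% and 8.18% against 4.32%, 4.94% and 4.45% (log2 0.98), but without the liver clonotypes its difference was 0.32 (limma, adjusted p = 0.461). TRAV17 (1.13), TRAV19 (0.79), TRAV11 (0.75) and TRAV5 (0.74) also passed the test, with log2 differences in the direction of CD4. None of these 4 passed without the liver clonotypes, where TRAV17 was at 0.50, TRAV19 at 0.23, TRAV5 at 0.61 and TRAV11 at -0.32. The CD4 and CD8 values of TRAV11 overlapped, and 6 of 12 day 6 pairs had its spleen direction. TRAV7, the largest family in CD4, was at 23.2%, 22.5% and 20% there and at 16%, 14.4% and 15.9% in CD8 (log2 0.50, limma adjusted p = 0.0108). In all, 13 of 17 families with a mean usage of at least 0.5% were called at an adjusted p below 0.05, which is 76.5% of those tested (58.8% higher in CD4 and 17.6% higher in CD8), and 12 of 17 had no overlap between the cell types (70.6%). With the names of the CD4 table, 70.6% of the families were called, with 58.8% higher in CD4, and with those of the CD8 table, 77.8%, with 61.1% higher in CD4. Of the 13 calls 12 held under all 3 sets of names. Since most families were called, a call alone does not set a family apart. TRAV17 (mean 0.439% in CD8) and TRAV11 (0.399%) passed the usage limit through CD4 alone, where they are high, so that their calls support nothing. When each pair of libraries was left out in turn, TRAV16, TRAV12, TRAV14, TRAV21, TRAV17, TRAV4, TRAV10 and TRAV5 were called each time, while TRAV3, TRAV7 and TRAV19 were lost without the STAT3ko pair and TRAV8 without any of the 3. TRAV11 fell below the usage limit without the STAT3ko pair and passed without either of the others. For TRAV families and segments limma estimated 1 common spread for all features, so these p-values rest on a shared error.

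**Figure D2:**
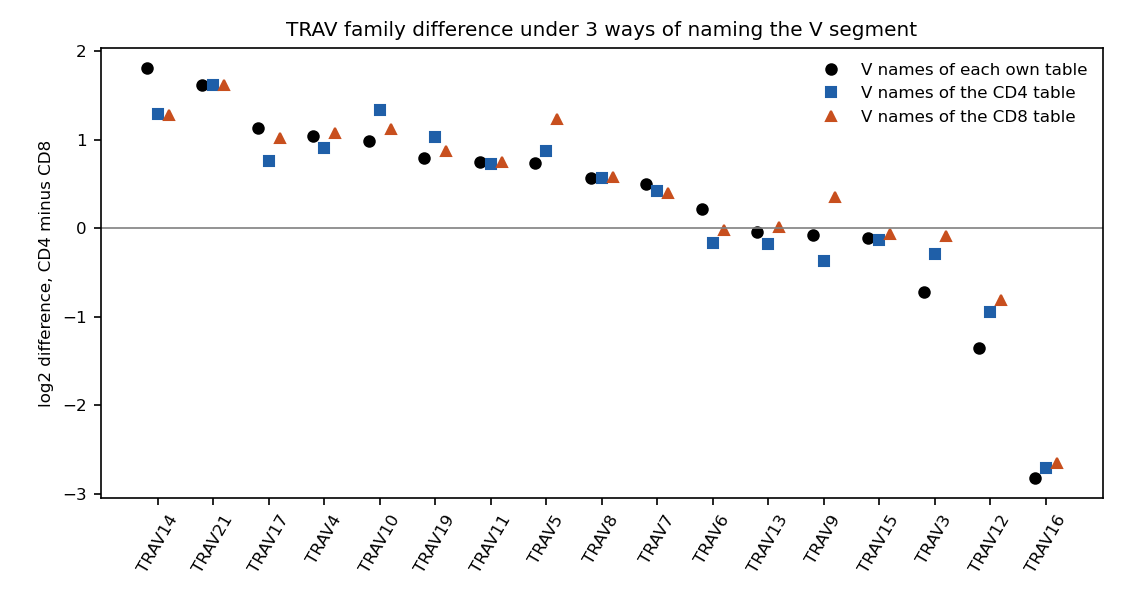
Log2 difference in TRAV family usage, CD4 minus CD8, with the TRAV names of each own table (circles), of the CD4 table (squares) and of the CD8 table (triangles). TRAV16 stays below -2.6 and TRAV14 and TRAV21 above 1.2 under each set, while TRAV3 moves from -0.72 to -0.09 and TRAV9 and TRAV6 cross 0.

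Because shares of a library sum to a fixed total, the excess of TRAV16 in CD8 left less room for every other family there. All families but TRAV16 made up 96.4% of the CD4 libraries and 73.8% of the CD8 libraries on average, a ratio of 1.31 or a log2 difference of 0.38. When usage was recomputed over CDR3s that did not start with CAMR, TRAV14 (log2 1.45), TRAV21 (1.32), TRAV17 (0.83), TRAV4 (0.69) and TRAV10 (0.63) were still called higher in CD4, and TRAV12 (-1.72) and TRAV3 (-1.08) higher in CD8. TRAV19 (0.47), TRAV11 (0.46), TRAV5 (0.39), TRAV8 (0.22) and TRAV7 (0.14) no longer passed. The split of family calls went from 10 higher in CD4 and 3 higher in CD8 to 5 and 4, and that of TRAV segments from 24 and 11 to 14 and 15.

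Among single TRAV segments, 35 of 47 were called, or 74.5% of those tested, with 24 higher in CD4 (51.1%) and 11 higher in CD8 (23.4%), and 38 had no overlap between the cell types (80.9%). With the names of the CD4 table, 58% were called (42% higher in CD4), and with those of the CD8 table, 64.4% (44.4% higher in CD4). Of the 35 calls, 24 were called in 1 direction under all 3 sets of names, 18 of them higher in CD4. The limit of 0.5% mean usage was passed through 1 cell type alone by 8 of the 35, CD4 for TRAV14-3, TRAV17, TRAV7-6 and TRAV13D-2 and CD8 for TRAV12-1, TRAV6-1, TRAV7D-3 and TRAV3-4, and the calls of these 8 support nothing. Of the 6 tested members of the TRAV14 family 5 were called higher in CD4, TRAV14-3 among them, and none higher in CD8. TRAV14N-3 was at 4.38%, 4.38% and 4.49% in CD4 and 0.774%, 0.617% and 0.584% in CD8 (log2 2.58 by each table's own names, 1.65 and 1.35 with the names of the CD4 and CD8 tables). TRAV14-3, with means of 1.69% in CD4 and 0.187% in CD8, was at 2.71 (1.41 and 1.80 with the other names). TRAV14D-2 was at 2.45 (0.74 and 1.71 with the other names) and TRAV14D-3-DV8 at 1.88 (1.41 and 0.98). All 3 tested TRAV4 members and all 3 tested TRAV10 members were called higher in CD4, with TRAV4-4-DV10 at 1.13.

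In the direction of CD8, 4 of 5 tested TRAV12 members were called, TRAV12-1 among them, beside 23.4% of all segments tested, and 3 of them under all 3 sets of names. TRAV12N-3 was at 1.88%, 1.79% and 1.46% in CD4 and 7.49%, 6.36% and 6.21% in CD8 (log2 -1.91, and -1.27 and -1.09 with the names of the CD4 and CD8 tables). TRAV12-1 (-2.07), TRAV12-2 (-1.46), TRAV6-1 (-1.38), TRAV7D-3 (-1.23) and TRAV7-3 (-0.91) followed TRAV16N, which had the lowest log2 difference of all segments at -2.84. TRAV7-3 was not called with the names of the CD4 table (-0.52, limma adjusted p = 0.27) or of the CD8 table (-0.30, adjusted p = 0.256), and without the liver clonotypes it was called higher in CD4 (1.14, limma adjusted p = 0.0275). TRAV12-1, at 0.14% ± 0.0873 in CD4 and 0.865% ± 0.0221 in CD8, fell below the usage limit with the names of the CD4 table and was at -0.997 with those of the CD8 table. Of the 35 called segments, 3 had the other sign under another naming (TRAV6-5, TRAV6-7-DV9 and TRAV3D-3), and 0 of these were called there. When each pair of libraries was left out in turn, 16 of the 35 were called each time. TRAV6-5 was at 0.99 in the direction of CD4 by each table's own names and at -0.16 and -0.14 with the names of 1 table, and TRAV3-3 went from -0.75 to -0.01 and -0.17.

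Position in the locus was described with fixed lists. The segments at the end of the TRAV array nearest the TRAJ segments (TRAV17 to TRAV21) accounted for 4.55% ± 0.943 of the CD4 and 1.82% ± 0.175 of the CD8 libraries (n = 3), and all 3 of their members tested (TRAV17, TRAV19 and TRAV21) were called higher in CD4, beside 51.1% of all TRAV segments, with TRAV17 admitted to the test through CD4 alone. The 4 tested segments whose names mark them as also usable in delta chains were all called higher in CD4 by each table's own names, 3 of them under all 3 namings, with TRAV6-7-DV9 at -0.09 with the names of the CD8 table. Together they held 9.38% ± 0.703 of CD4 and 4.17% ± 1.09 of CD8 (n = 3). The median log2 difference over all 47 TRAV segments was 0.54, so both lists lay on the side to which most segments leaned.

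Of 28 CDR3 starts tested, 18 were called (64.3%), 11 higher in CD4 (39.3%) and 7 higher in CD8 (25%), and 19 had no overlap between the cell types (67.9%). CAAS, the germline start of 18 segments of TRAV5, TRAV7, TRAV10 and TRAV14, was at 23.7%, 26% and 23.9% in CD4 and 9.19%, 8.75% and 8.6% in CD8 (means 24.5% ± 1.23 and 8.85% ± 0.304, n = 3). Its log2 difference was 1.46 (SE 0.14, limma adjusted p = 0.00181), and 0.69 without the liver clonotypes (limma, adjusted p = 0.281). CAAE, the start of 7 TRAV4 segments, was at 3.38%, 3.4% and 3.61% in CD4 and 1.24%, 1.28% and 0.919% in CD8 (log2 1.53, limma adjusted p = 0.00274). CILR, which is the start of TRAV21 alone, was at 1.07%, 1.02% and 1.97% against 0.415%, 0.366% and 0.431% (log2 1.47, limma adjusted p = 0.00469). For each of these 3 starts the lowest CD4 value exceeded the highest CD8 value, and the call held with any 1 pair of libraries left out. CILR, at a mean of 0.404% in CD8, passed the limit of 0.5% mean usage through CD4 alone, as did CAAL (0.406%), and CALA, at 0.48% in CD4, passed it through CD8 alone, so that the calls of these 3 starts support nothing. Without the liver clonotypes CAAE was at 1.06 and CILR at 1.18, and neither passed. With no filter on low usage 0 of 937 starts were called by limma (45 at an unadjusted p under 0.05).

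The other starts called higher in CD4 included CAAT (1.56), CAAG (1.04), CAAN (1.02), CAAA (0.93) and CAAR (0.71). Of the 11 starts called higher in CD4, 9 open with CAA and the other 2 are CILR and CALE (0.66). These 9 and CAAP, which was at -0.27 and not called, were all the tested starts that open with CAA. CAAL, which passed the usage limit through CD4 alone, is among the 9. CAAG is the germline start of TRAV19. The calls for CAAR, CAAD and CALE were lost without the WT or the STAT3ko pair. CAAN was lost without the WT pair and CAAA without the STAT3ko pair, while CAAT and CAAG held in each refit. The starts called higher in CD8 beside CAMR were CALR (-0.75), CVLS (-0.61), CALS (-0.60), CALT (-0.54), CAVT (-0.53) and CALA (-0.52). CALS is the germline start of 16 segments of the TRAV6, TRAV9, TRAV12 and TRAV15 families. None of these 6 calls held without the WT pair or without the STAT3ko pair. With CAMR left out of the totals, 14 of 32 starts were called, 6 higher in CD4 and 8 higher in CD8.

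On the log2 scale the largest TRAJ difference was smaller than the largest TRAV difference. The shares called are not comparable, since limma used 1 common error for TRAV and a separate error for each TRAJ segment. Of 41 TRAJ segments, 11 were called (26.8%), 6 higher in CD4 (14.6%) and 5 higher in CD8 (12.2%), and 17 had no overlap between the cell types (41.5%). TRAJ22 had the largest difference: 4.56%, 5.19% and 4.57% in CD4 and 11.2%, 9.36% and 8.54% in CD8, without overlap. The means were 4.77% ± 0.359 and 9.7% ± 1.36 (n = 3), a 2.03-fold difference (log2 -1.002, SE 0.15, limma adjusted p = 0.0301). TRAJ22 made up 13.3%, 12% and 11.2% of the frequency of CAMR clonotypes in CD8 and 10.6%, 8.5% and 7.55% of that of all others, against 4.72%, 2.21% and 4.82% and 4.55%, 5.3% and 4.56% in CD4. TRAJ22 was thus higher in every CD8 library than in any CD4 library both with and without the CAMR start. Over CDR3s without CAMR, 19 of 42 TRAJ segments were called (45.2%, with 21.4% higher in CD4). With each clonotype counted once, 31 of 43 were called (72.1%, with 37.2% higher in CD4).

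The other TRAJ segments called higher in CD8 were TRAJ50 (-0.77), TRAJ26 (-0.68), TRAJ45 (-0.54) and TRAJ33 (-0.51). TRAJ26 was at 3.49%, 3.53% and 3.95% in CD4 and 4.77%, 6.62% and 6.5% in CD8. In the direction of CD4, TRAJ52 was at 2.12%, 2.06% and 2.15% against 1.01%, 0.884% and 1.48% (log2 0.88, SE 0.17, limma adjusted p = 0.0301). TRAJ27, at 5.79%, 5.38% and 5.05% against 3.18%, 2.38% and 3.36% (0.85), and TRAJ37, at 4.75%, 5.96% and 6.79% against 2.28%, 4.1% and 3.36% (0.85), were followed by TRAJ56 (0.70), TRAJ43 (0.57) and TRAJ42 (0.54). The CD4 and CD8 values of TRAJ52, TRAJ27 and TRAJ37 did not overlap. These calls rested on few libraries: with the WT pair left out 10 TRAJ segments were called, 8 of them among the 11, and with either of the other pairs left out none was. The calls also rested on setting each CD4 library against the CD8 library of its genotype, for which no shared animal is stated: with genotype left out of the fit (no replicate block), 4 of the 11 were called (TRAJ52, TRAJ27, TRAJ50 and TRAJ22). In the day 6 libraries, 10 of the 11 called segments had the spleen's direction in all 12 pairs. Segments that were not called, TRAJ30, TRAJ12 and TRAJ48 among them, also had it in all 12, while TRAJ9 had it in 0. The first liver libraries of these pairs share clonotypes with the spleen. Without the liver clonotypes the TRAJ22 difference was -1.03 (limma, adjusted p = 0.134) and that of TRAJ50 turned to 0.15.

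Usage was also summed along the TRAJ array. TRAJ58 to TRAJ41, the end nearest the TRAV segments, held 22% ± 3.53 of CD4 and 20.2% ± 2.3 of CD8 frequency, TRAJ40 to TRAJ21 held 54.1% ± 1.18 and 54.5% ± 1.41, and TRAJ20 to TRAJ2 held 23.9% ± 4.62 and 25.3% ± 3.7 (SD, n = 3). The group means of each stretch lay within 1 SD of each other. Within pairs, the first stretch was higher in CD4 in all 3 genotypes (18.6% against 17.7%, 21.8% against 20.9% and 25.6% against 22.1%). Of the 11 called segments 6 lay in the first stretch (4 higher in CD4 and 2 higher in CD8 of 13 tested), 5 in the middle (2 and 3 of 16), and 0 of the 12 tested in the last stretch, beside 26.8% of all TRAJ segments. In the last stretch TRAJ7 (-0.59), TRAJ11 (-0.57) and TRAJ4 (-0.51) were called higher in CD8 once CAMR CDR3s were left out, beside 45.2% of all TRAJ segments in that fit, and 6 of its 12 segments were called with each clonotype counted once, beside 72.1% of all.

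**Figure D3:**
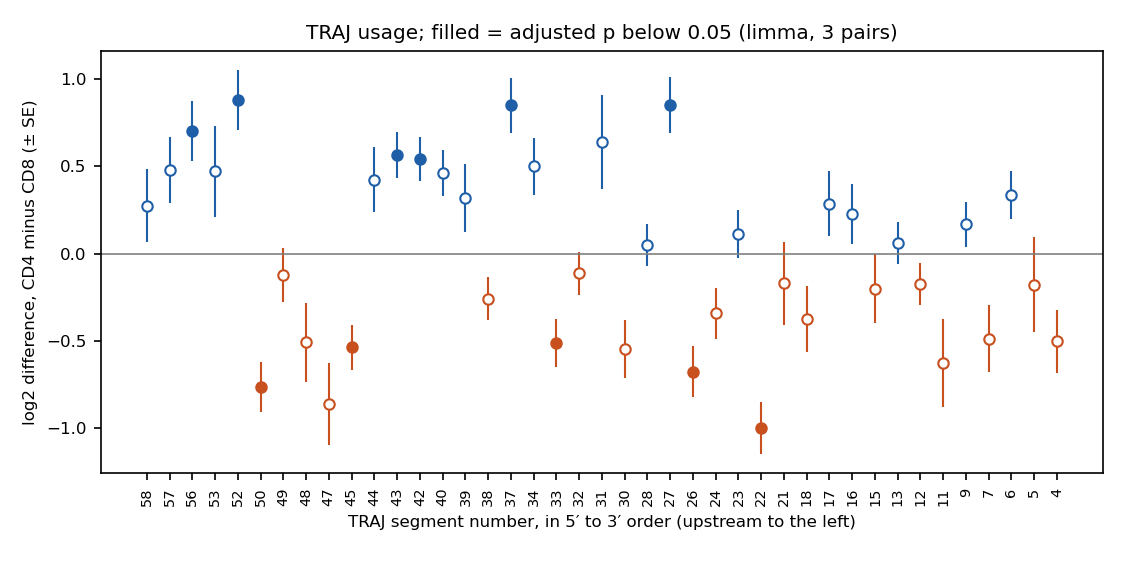
Log2 difference in TRAJ usage, CD4 minus CD8, from 5′ to 3′ along the tested segments of the array. Lines are standard errors from limma and filled points are segments with an adjusted p below 0.05, of which TRAJ22 is the lowest and TRAJ52 the highest, with none after TRAJ22.

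The V-J pairs combined the segments above. The filter on a mean usage of 0.1% admits pairs that are high in 1 cell type alone, and such pairs had to differ, so the counts describe these pairs and support nothing. With no filter limma called 0 of 3649 pairs (505 at an unadjusted p under 0.05). Of 231 pairs, 99 were called (42.9%), 49 higher in CD4 (21.2%) and 50 higher in CD8 (21.6%), and 115 had no overlap between the cell types (49.8%). With the names of the CD4 table, 37.3% were called (19.6% higher in CD8), and with those of the CD8 table, 30.3% (14.5% higher in CD8). Of the 99 calls 44 were called under all 3 sets of names, 13 in CD4 and 31 in CD8. TRAV16N with TRAJ22 had the lowest log2 difference: 0.216%, 0.0523% and 0.163% in CD4 and 3.12%, 3.1% and 3.24% in CD8, a 21.9-fold difference (log2 of percent + 0.02 of -4.44, limma adjusted p = 0.00459, and -4.04 and -4.19 with the other names). TRAV16N with TRAJ30 (-3.70) and with TRAJ33 (-3.64) also held under each set of names. Without the liver clonotypes these 3 pairs were at -3.73, -2.08 and -1.07, and none passed. TRAV3D-3 with TRAJ30 (-3.75) and with TRAJ22 (-3.71) were called by each table's own names but not with those of the CD8 table (limma, adjusted p = 0.239 and 0.202).

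TRAV14N-3 with TRAJ23 was among the pairs with the largest difference in the direction of CD4, at 0.558%, 0.761% and 0.502% against 0.0214%, 0.0236% and 0.0224% (27-fold, log2 3.86, and 2.94 and 2.83 with the other names). TRAV8D-1 with TRAJ37 (3.44) also held under each set of names, with 3.02 and 2.82. TRAV14D-2 with TRAJ12, at 4.01 by each table's own names, was at 0.51 with the CD4 table's names (limma, adjusted p = 0.604). One of its CDR3s, the most frequent of those found in both tables, had the same nucleotide sequence in both and was named TRAV14D-2 in CD4 and TRAV10 in CD8.
TRAV14D-2 or TRAV10 with TRAJ12: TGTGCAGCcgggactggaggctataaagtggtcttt
Only 8 letters of it match the end of either segment before the joint, and the remaining letters belong to the joint and to TRAJ12.

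Long CDR3s were more frequent in CD8. The frequency-weighted mean length was 13.4 residues ± 0.0214 in CD4 and 13.7 ± 0.0336 in CD8 (n = 3), a difference of -0.251 that had the same sign in all 3 pairs (exact two-sided permutation p = 0.25, the smallest that 3 pairs allow). Of 8 length classes 6 were called (75%), 5 of them higher in CD8 (62.5%), and the same share of classes, 75%, had no overlap between the cell types. CDR3s of 13 residues were at 33.7%, 33.1% and 31.9% in CD4 and 25.1%, 23% and 22.6% in CD8 (log2 0.48, limma adjusted p = 0.00279). CDR3s of 16 residues were at 3.93%, 3.32% and 3.27% in CD4 and 8.98%, 7.5% and 7.28% in CD8 (log2 -1.15, limma adjusted p = 0.000154). The classes of 15 residues (-0.55) and of 17 or more (-1.15) were also higher in CD8, as were the short classes of 11 residues (-0.42) and of 10 or fewer (-0.59). Those of 12 (0.19) and 14 residues (0.09) were not called. Without the liver clonotypes none of the classes passed, 16 residues was at -0.47 and 10 or fewer turned to 0.45.

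The excess of long CDR3s in CD8 went with the CAMR start. CAMR CDR3s averaged 14.7, 14.8 and 14.6 residues in CD4 and 14.8 in each CD8 library, and all other CDR3s 13.33, 13.37 and 13.36 in CD4 and 13.35, 13.26 and 13.22 in CD8. With CAMR CDR3s left out the difference in mean length was 0.076, in the opposite direction and with the exact permutation p at 0.5. The classes of 16 residues (-0.44, limma adjusted p = 0.0569) and 13 residues (0.25, limma adjusted p = 0.0569) then missed the threshold, and those of 15 and of 17 or more were at -0.05 and -0.37. Of the 8 classes, 2 were then called (25%), both short and both higher in CD8, 11 residues at -0.76 (limma, adjusted p = 0.00381) and 10 or fewer at -0.91 (limma, adjusted p = 0.000805).

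**Figure D4:**
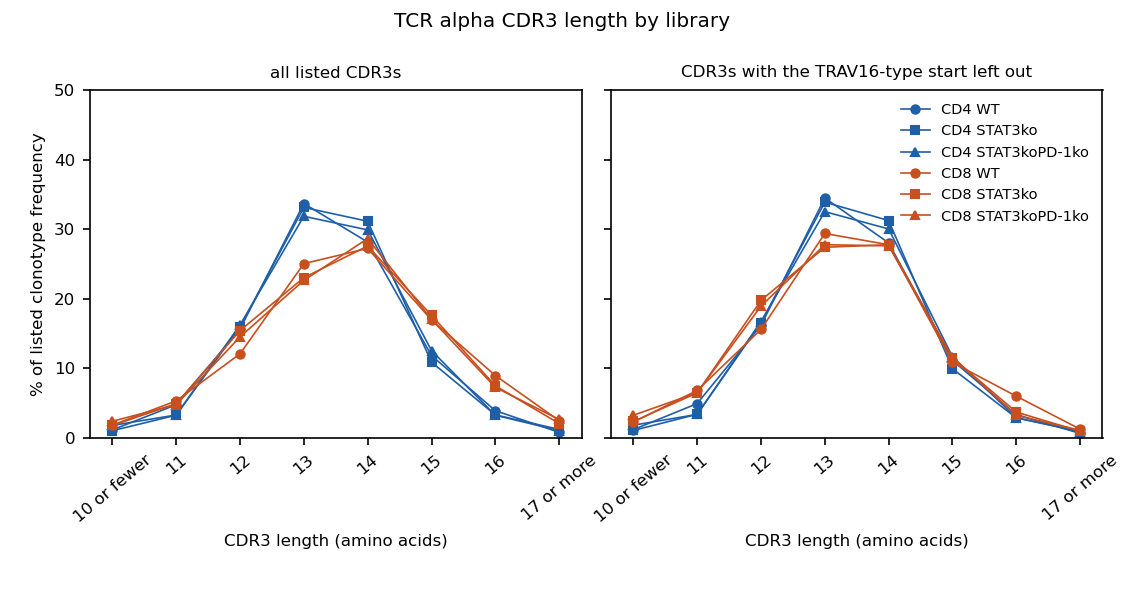
Distribution of CDR3 length in the 6 spleen libraries, as percent of listed frequency, for all CDR3s (left) and without those that start with CAMR (right). On the left the CD8 lines lie below the CD4 lines at 13 residues and above them at 15 and 16, and on the right the lines lie closer together at 15 and 16.

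The residues of the CDR3 centre, taken without the first 3 and the last 4 positions, also differed. Of 20 residues 12 were called (60%), 5 higher in CD4 (25%) and 7 higher in CD8 (35%), and 9 had no overlap between the cell types (45%). Arginine made up 4.17%, 4.28% and 3.74% of central residues in CD4 and 6.7%, 7.1% and 7.38% in CD8 (log2 -0.78, limma adjusted p = 0.00037), and glutamate 2.84%, 2.59% and 3.06% against 4.86%, 4.67% and 4.98% (-0.76, limma adjusted p = 0.000191). The TRAV16N end encodes both an arginine and, after it, a glutamate. CAMR CDR3s held 62.8% to 67.5% of central glutamate and 57.5% to 61.6% of central arginine in CD8, against 11.3% to 18.1% and 15.3% to 16.1% in CD4. Without them glutamate was at 0.07 (limma, adjusted p = 0.215), and arginine at -0.19 (limma, adjusted p = 0.00252), with 11 of 20 residues called (55%).

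Tryptophan (-0.65), aspartate (-0.40), phenylalanine (-0.34), leucine (-0.24) and tyrosine (-0.12) were also higher in CD8. TRAJ22, which encodes a tryptophan inside the CDR3, held 81.3% to 90.2% of central tryptophan in CD8 and 61.4% to 76.9% in CD4. Aspartate was at -0.56 without CAMR CDR3s. In the direction of CD4 were lysine (0.45, limma adjusted p = 0.00648), threonine (0.36), asparagine (0.29), cysteine (0.16) and glycine (0.14). The calls for cysteine and tyrosine were lost whichever pair of libraries was left out, and cysteine overlapped between the cell types and turned to -0.42 without the liver clonotypes. Asparagine, the most frequent of these after glycine, was at 17.3%, 18% and 17.9% in CD4 and 13.9%, 14.7% and 15% in CD8. The net charge of the centre, with arginine and lysine positive and aspartate and glutamate negative, was -0.060, -0.044 and -0.102 in CD4 and -0.099, -0.070 and -0.074 in CD8. These ranges overlapped (difference 0.0123, exact permutation p = 0.75). The difference was larger, with CD4 higher in all 3 pairs and the exact permutation p at the smallest possible 0.25, with each clonotype counted once (0.0750), without clonotypes of both cell types (0.0718), without the liver clonotypes (0.0971), without CAMR CDR3s (0.0528) and over all CDR3 positions (0.108).

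Chains of unconventional T cells were rare. The invariant natural killer T (NKT) cell chain, TRAV11 with TRAJ18 and a CDR3 of 15 residues, held 0.00557%, 0.00261% and 0% of the CD4 libraries and 0.0237%, 0% and 0% of the CD8 libraries. A chain at 0% is only listed at 0, since the depth is unknown. TRAV1 with TRAJ33, the pair used by mucosal-associated invariant T (MAIT) cells, was counted whatever its CDR3. This share can therefore include chains of other T cells. It was 0.00558%, 0.00204% and 0.00539% in CD4 and 0.062%, 0.0209% and 0.044% in CD8. Every CD8 library lay above every CD4 library for the latter (exact permutation p = 0.25, the smallest possible), a difference of -0.038 percentage points. It was -0.0138 with each clonotype counted once, with 2 of 3 pairs in that direction, and -0.00558 without the liver clonotypes, with 1 of 3. Both chains rest on the TRAV name of each own table.

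CD4 and CD8 libraries shared many CDR3s. The 3 CD4 libraries held 28109 different CDR3s and the 3 CD8 libraries 23223, of which 8203 were found in both cell types (29.2% of the CD4 and 35.3% of the CD8 CDR3s). With TRAV and TRAJ names required to match as well, 2337 were shared (8.31% and 10.1%), a lower number that includes the effect of the naming. The shared CDR3s held 48.9% to 53.8% of the frequency of the CD4 libraries and 55.9% to 58.3% of that of the CD8 libraries. They were shorter, with an unweighted mean of 13.4 residues in each library against 13.7 for CDR3s of CD4 alone and 13.9 for those of CD8 alone. CAMR made up 6.46% to 7.76% of the shared CDR3s in the CD4 libraries and 2% to 2.57% of those of CD4 alone. In the CD8 libraries it made up 9.43% to 10.7% of the shared CDR3s and 17.3% to 18.5% of those of CD8 alone.

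The sharing was then compared within and between genotypes. Overlap was computed by taking, for each clonotype, the lower of its frequencies in a pair of libraries and adding these up. It was 1.97%, 2.21% and 2.4% between the CD4 and CD8 libraries of the same genotype (mean 2.19% ± 0.215, n = 3) when CDR3, TRAV and TRAJ had to match. Between libraries of different genotypes it was 2.21% ± 0.334 (n = 6). The difference was -0.0182 percentage points (exact one-sided permutation p = 0.667, where 0.167 is the smallest that 6 matchings allow). As a percentage of the clonotype list the sharing was instead higher within a genotype, by 0.496 points of the CD4 list and 0.515 points of the CD8 list (exact one-sided permutation p = 0.167 each), so the direction depended on the measure. By the CDR3 alone the overlap was 7.99%, 10.8% and 9.62% within a genotype and 9.47% ± 1.48 (n = 6) between genotypes. By the CDR3 alone, libraries of the same cell type from different genotypes overlapped by 14.7% to 18.7% in CD4 and by 13% to 16.6% in CD8. The 9 overlaps between CD4 and CD8 libraries ran from 7.2% to 11.3%. The 2 kinds of overlap are not alike in construction, since each table lists only clonotypes found in at least 2 libraries of its own cell type: a clonotype shared within a cell type was always listed, while one shared only across cell types was not, so their difference supports nothing.

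**Figure D5:**
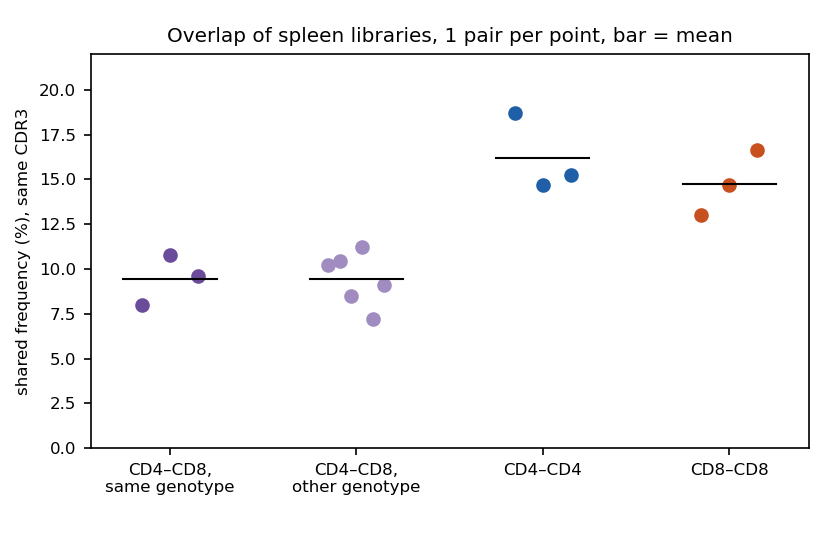
Overlap of frequency between pairs of spleen libraries, matched by CDR3 alone, for CD4 with CD8 of the same genotype, CD4 with CD8 of different genotypes, and pairs within a cell type. Points are library pairs and bars are means. The pairs within a cell type run from 13% to 18.7% and those between cell types from 7.2% to 11.3%, but clonotypes shared only across cell types were not listed.

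Of the CDR3s present in all 3 libraries of a cell type (2093 in CD4 and 1307 in CD8), 495 were present in all 6 libraries, which is 23.7% and 37.9%. Among these 495 the log2 differences were spread evenly, with 252 above 0 and a median of 0.03, but CDR3s of some starts leaned to 1 side. Of the 44 that began with CAMR, 41 were lower in CD4 (median -2.78), and of the 103 that began with CAAS, 74 were higher in CD4 (median 1.29). The 20 that began with CAVR had a median of 0.67, against -0.46 for that start over all clonotypes. Of the 65 with CAVS, 33 lay above 0. These CDR3s are part of the frequencies that gave the differences between starts and TRAJ segments, so they are no separate support. By TRAJ segment, 19 of the 24 with TRAJ30 (median -1.42) and 38 of the 56 with TRAJ22 (median -0.75) were lower in CD4, and 17 of the 26 with TRAJ37 were higher in CD4 (median 1.04). Of the 25 with TRAJ26, a segment called higher in CD8, 12 were above 0 and 13 below. The 26 with TRAJ12 had a median of 0.21, against -0.18 for that segment over all clonotypes. As single CDR3s, 8 of the 495 were called by limma (1.62%), 3 higher in CD4 (0.606%) and 5 higher in CD8 (1.01%). The 3 higher in CD4 all began with CAAS and used TRAJ15 (clonotype CD4-3), TRAJ22 and TRAJ42. Of the 5 higher in CD8, 3 began with CAMR and used TRAJ22 (clonotype CD8-2), TRAJ23 and TRAJ48, and 2 began with CALS and used TRAJ22 and TRAJ33. With a pair of libraries left out, at most 1 was called.

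The leading clonotypes mixed CDR3s found at similar levels in both cell types with others found mainly in one. CD4-1, the TRAJ22 chain shown above, was at 0.309%, 0.486% and 0.358% in CD4 and at 0.158%, 0.149% and 0.341% in CD8, and was the highest of all shared CDR3s by the smaller of its 2 means. Its CD4 and CD8 values overlapped. CD8-1 was at 0.536%, 0.535% and 0.387% in CD8 and at 0.0058%, 0.007% and 0.05% in CD4. CD8-2 was at 0.122%, 0.526% and 0.619% in CD8 and at 0.0027%, 0.007% and 0.004% in CD4. These TRAV16N with TRAJ22 chains were each higher in every CD8 library than in any CD4 library. CD4-2, at 0.161%, 0.102% and 0.689%, and CD4-3, at 0.534%, 0.281% and 0.0617%, reached at most 0.0028% in CD8. These clonotypes were picked by their frequency in 1 cell type, which favours an excess there, so their differences support nothing. CD8-3 was at 0.846% in the WT library of CD8 and at 0.0003% and 0% in the others, so its rank rested on 1 library. Of the 5 leading shared CDR3s 4 used TRAJ22, among them CD4-1 and the TRAV14D-2 or TRAV14D-1 chain shown above. The TRAJ12 chain with the names TRAV14D-2 and TRAV10 was the other, at 0.0818%, 0.155% and 0.304% in CD4 and 0.004%, 0.31% and 0.0356% in CD8.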

How the data were processed

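TCRA clonotype tables of splenic CD4 and CD8 T cells were analysed. Per the study's methods, receptor transcripts were amplified with a SMARTer kit, sequenced in pairs, assembled into clonotypes with MiXCR and joined with VDJtools. The deposited tables are split by cell type. The submitters' processing notes name mm10. The deposited values are the fraction of each library's reads, formed by the authors before the join, which kept clonotypes of at least 2 of 18 libraries. Each table here has 15 of them. Read counts are not given, so the depth is unknown, and no counting interval can be given. The TCRB tables were not used here.

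Frequencies were divided by their sum over listed clonotypes. Values of named clonotypes and of CDR3s in all 6 libraries were not, and are percent of all reads. Usage was tested with limma 3.58.1 (R 4.3.3) on log2(percent + 0.1), or + 0.02 for V-J pairs, with genotype and cell type in the fit, over features with a mean usage of at least 0.5% (0.1% for pairs), and p-values were adjusted by the Benjamini-Hochberg method within each kind of feature (threshold 0.05). These log2 differences understate the change of rare features. Single values were compared by exact permutation within genotype (8 arrangements) and overlaps over 6 matchings. The labels pair libraries by genotype only, and do not say whether the CD4 and CD8 cells came from the same mice. The limma p-values rest on the spread of these 3 pairs, shared in part across features. For TRAV segments and families all features had 1 common standard error, so their p-values do not measure the spread of a single feature. The same held for TRAV families and TRAJ segments without the liver clonotypes, and for residues without CAMR CDR3s. Named TRAV and TRAJ segments were the up to 8 called in each direction with the largest difference and 1 sign in all pairs, and every member of the lists. Pairs were the up to 5 by that rule. The CDR3s called in all 6 libraries were named after their values were seen. Members and lists were chosen with earlier results of these data known. TRAV families, CDR3 starts, the 2 common namings, matching by CDR3 alone, the test of CDR3s found in all 6 libraries and the exclusion of CAMR CDR3s were added after seeing the data. Leaving out liver clonotypes, other pseudocounts, filters and weightings, and each pair in turn were the other alternatives. The limma step was checked on simulated data for TRAV and TRAJ segments, CDR3 starts and V-J pairs. The simulated features were independent, had equal spread and did not sum to a fixed total, unlike the shares here. Python 3.11.15, pandas 2.3.3 and Biopython 1.88 were used, and segments came from GENCODE M21.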

Additional observations from a re-analysis of the deposited data

Results flagged for a closer look

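TRAV8 stood apart between tissues. Its family usage was higher in CD4 than in CD8 in all 3 spleen pairs (5.24%, 3.85% and 4.76% against 2.93%, 3.38% and 2.87%), but lower in CD4 in all 6 gut pairs of day 6, with a mean CD4 minus CD8 difference there of -1.18 percentage points. The difference between the tissues was not tested. The spleen call for TRAV8 (log2 0.57, limma adjusted p = 0.00422) was lost when any 1 of the 3 genotype pairs was left out and without CAMR CDR3s (0.22, limma adjusted p = 0.294), and with each clonotype counted once the difference turned to -0.11 (limma, adjusted p = 0.189). In liver, 5 of 6 pairs had the spleen direction.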

How the results depend on the processing

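Of 159 alternative values of the main results 123 kept their direction and side of the threshold, as did 1046 of 1304 for named features. The main counts of calls were 35 TRAV segments, 13 TRAV families, 11 TRAJ segments, 18 CDR3 starts, 99 V-J pairs, 6 length classes, 12 residues and 8 CDR3s. Leaving out each pair of libraries in turn gave 21 to 26 TRAV segments, 0 to 10 TRAJ segments, 7 to 18 starts, 48 to 91 V-J pairs and 0 to 1 CDR3s, the lowest from the fit without STAT3koPD-1ko for TRAV, without STAT3ko or STAT3koPD-1ko for TRAJ, without WT for starts and without STAT3ko for V-J pairs. It also gave -0.000787 to 0.0324 for the net charge, -0.00908 to 0.00131 for the NKT chain, -0.170 to 0.551 for the effective number (log2) and -0.115 to 0.170 for the overlap difference. Calls lost there can come from the smaller number of samples. Without the clonotypes of the first liver library, which removes most of the frequency, limma called 15 TRAV segments, 6 families, 1 TRAJ segment and 0 starts, V-J pairs, length classes or residues (5, 30, 1 and 4 at an unadjusted p under 0.05), and TRAV7-3 (1.14), TRAJ43 (-0.0598), TRAJ50 (0.15), CALT (0.39), CAVT (0.31), CALA (1.32), TRAV11 (-0.32), 10 or fewer residues (0.45) and cysteine (-0.42) reversed. With no filter on low usage limma called 0 of 937 starts and 0 of 3649 V-J pairs (45 and 505 at an unadjusted p under 0.05), where many more features were tested. With the clonotypes of both spleen tables left out, limma called 9 starts and 6 residues, and the NKT difference was 0.00530. With each clonotype counted once 31 TRAJ segments were called, and TRAV8 (-0.11), CALA (0.0138), 12 residues (-0.0378), cysteine (-0.0538) and the NKT chain (0.00532) reversed. Without CAMR CDR3s 19 TRAJ segments and 2 length classes were called, and mean length (0.076), 12 residues (-0.13) and glutamate (0.0736) reversed. With the V names of 1 table, TRAV6-5 (-0.16 for CD4, -0.14 for CD8) and, for CD8, TRAV6-7-DV9 (-0.0851) and TRAV3D-3 (0.000123) reversed. Phenylalanine was at 0.0476 over all CDR3 positions, the inverse Simpson index at -0.041, and the overlap difference at 0.496 and 0.515 as a percentage of the CD4 and CD8 clonotype lists (exact one-sided permutation p = 0.167 each, the smallest possible). The causes were not tested. CDR3s with a stop or frameshift sign could not be added, since the tables listed 0 of them. Depth is unknown, so rare chains listed at 0 may be present.

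Without the genotype in the fit (no replicate block) 4 TRAJ segments were called, against 35 TRAV segments, 13 families, 18 starts, 102 V-J pairs, 6 length classes, 9 residues and 6 CDR3s. Among the main calls, the starts CAAL and CVLS and the residues cysteine, leucine and phenylalanine were then lost. The deviations of the CD4 and CD8 library of a genotype from their cell type's mean correlated across features with r = 0.205, -0.030 and 0.056 for TRAV and 0.555, 0.096 and 0.447 for TRAJ in the order WT, STAT3ko and STAT3koPD-1ko. In that order r was -0.014, 0.124 and -0.243 for CDR3 starts and 0.707, 0.280 and 0.566 for residues. The pairing by genotype is the design's, and no shared animal is stated.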
